A study of Mus musculus with 12 samples.

Results

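Visceral smooth muscle cells form the muscle layers that churn and propel the contents of the gut. In these cells actin and smooth muscle myosin filaments slide past each other after myosin light chain kinase, switched on by calcium and calmodulin, phosphorylates the myosin light chains, and intermediate filaments of desmin and synemin tie the contractile units together. Many genes of this apparatus share regulation by serum response factor, which binds DNA elements known as CArG boxes, and its coactivator myocardin. The 10 genes described here were chosen by name as such a set and matched by symbol: Acta2, Actg2, Myh11, Tagln, Cnn1, Des, Synm, Mylk, Lmod1 and Smtn. They are 10 of the 35791 genes in the count files, and all 10 passed the filter on low counts that kept 13154 genes for testing.

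The small bowel RNA of male C57BL/6 mice was counted in 4 groups of 3 libraries, 12 in all. Post 2'-FL mice had the ileum's end and the cecum removed (ileocecal resection) and received 2'-fucosyllactose (2'-FL, an oligosaccharide of human milk) at 2.5 g/L from the day of resection, and Post control mice had the resection without 2'-FL. Both Post groups were sampled 8 weeks after surgery. Pre 2'-FL and Pre control libraries are labelled as taken before resection, in the arm with and the arm without the supplement. All mice were 8 to 10 weeks old at the start. None of the 4 groups is labelled as sham-operated, so resection cannot be told apart from age or time of sampling in comparisons of Post with Pre. The labels name 2'-FL for the Pre 2'-FL libraries although dosing began on the day of resection, and 1 protocol entry places all collections at 8 weeks after it, so that what the Pre 2'-FL mice had received is not settled. The segment of bowel and whether equal numbers mark the same mouse are not given, and p-values measure the spread between these libraries, which may in part be technical.

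Libraries held 5663275 to 9385266 counts. Values are given in CPM, counts set against the scaled library size, and a gene was called higher or lower where edgeR's quasi-likelihood test gave an adjusted p under 0.05 (Benjamini-Hochberg, all 13154 genes). Levels in this series went with transcript length: the rank correlation across genes between length and a gene's deviation from its own mean was -0.44, -0.56 and -0.60 in the 3 Post 2'-FL libraries, ran between -0.21 and 0.35 in Post control, between 0.36 and 0.50 in Pre 2'-FL and between 0.26 and 0.45 in Pre control. Genes are not independent replicates, and the value describes each library. Since the 10 genes run from 1333 nt (Actg2) to 7824 nt (Mylk), the called changes of these genes are given as counted and again with length and GC content corrected. The correction moved the median change of all tested genes in Post 2'-FL against Pre 2'-FL to 0.02 on the log2 scale, against -0.13 as counted. That shift follows from how the correction is fitted and is no check of it. A change in RNA level that itself went with length or GC would be removed as well.

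Upstream sequence is shown for the members whose start-proximal sequence held a near-match to the CArG box, the element that names this gene programme. The CArG box is CC, then 6 bases each A or T, then GG, and reads alike on both strands. RefSeq promoters (GRCm38.p6, 250 bases before to 50 bases after the start) were at hand for 7 of the 10 genes. A full CArG box lay in 0 of those 7 and in 1.63% of 32851 promoters of the same length. With at most 1 departure among the 6 middle bases, a setting chosen after the strict search, 2 of the 7 held a match, Acta2 with 2 and Synm with 1, against 9.98% of all promoters. The 250 bases before the start of Acta2 lie at chr19:34255374-34255623 and those of Synm at chr7:67759743-67759992, both on the minus strand, and are written 5′ to 3′ with the near-matches in capitals.
Acta2: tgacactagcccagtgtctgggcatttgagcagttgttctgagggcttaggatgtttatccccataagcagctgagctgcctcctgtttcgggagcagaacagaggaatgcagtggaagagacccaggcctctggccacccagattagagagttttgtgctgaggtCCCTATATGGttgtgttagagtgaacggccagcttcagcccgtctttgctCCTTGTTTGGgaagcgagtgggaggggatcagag
Synm: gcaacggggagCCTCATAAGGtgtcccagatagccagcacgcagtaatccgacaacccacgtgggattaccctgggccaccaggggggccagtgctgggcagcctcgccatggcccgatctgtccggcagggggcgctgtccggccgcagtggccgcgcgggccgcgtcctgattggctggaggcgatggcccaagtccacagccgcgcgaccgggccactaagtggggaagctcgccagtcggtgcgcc
The near-matches begin 84 and 34 bases before the Acta2 start and 239 bases before the Synm start, counted from the start in the promoter entry. For Acta2 that start lies inside the gene span printed below, so part of its 250 bases falls within the span. The starts used for Cnn1 and Mylk also lie inside their gene spans. A match describes these letters and does not by itself show a binding site, and binding was not tested. For Des, Lmod1, Cnn1, Smtn and Mylk these letters are not in the window searched.

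To set genes side by side, levels were also divided by transcript length in kilobases. The division does not remove the dependence on length that differed between groups, and the order of genes may in part reflect it. On this scale Tagln stood highest with a mean over the 12 libraries of 174 CPM per kb. Actg2 and Acta2 came next at 114 and 112 CPM per kb, then Des at 68.0, Mylk at 48.4, Cnn1 at 35.8 and Myh11 at 23.8 CPM per kb. Smtn at 9.85, Synm at 5.46 and Lmod1 at 3.89 CPM per kb were the lowest. The order was not the same in each group, and Tagln was not highest in every one: in Pre 2'-FL, Acta2 averaged 146 and Actg2 129.5 CPM per kb, and in Pre control Acta2 averaged 107 CPM per kb, within the spread of Tagln. Tagln averaged 362 ± 96.7 CPM per kb in Post 2'-FL, 97.3 ± 27.0 in Post control, 128 ± 44.7 in Pre 2'-FL and 109.6 ± 21.6 in Pre control (SD, n = 3 each). Myh11 averaged 6.99 ± 2.39 CPM per kb in Post 2'-FL, 11.9 ± 6.55 in Post control, 44.4 ± 19.4 in Pre 2'-FL and 32.0 ± 2.09 in Pre control (SD, n = 3 each).

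**Figure D1:**
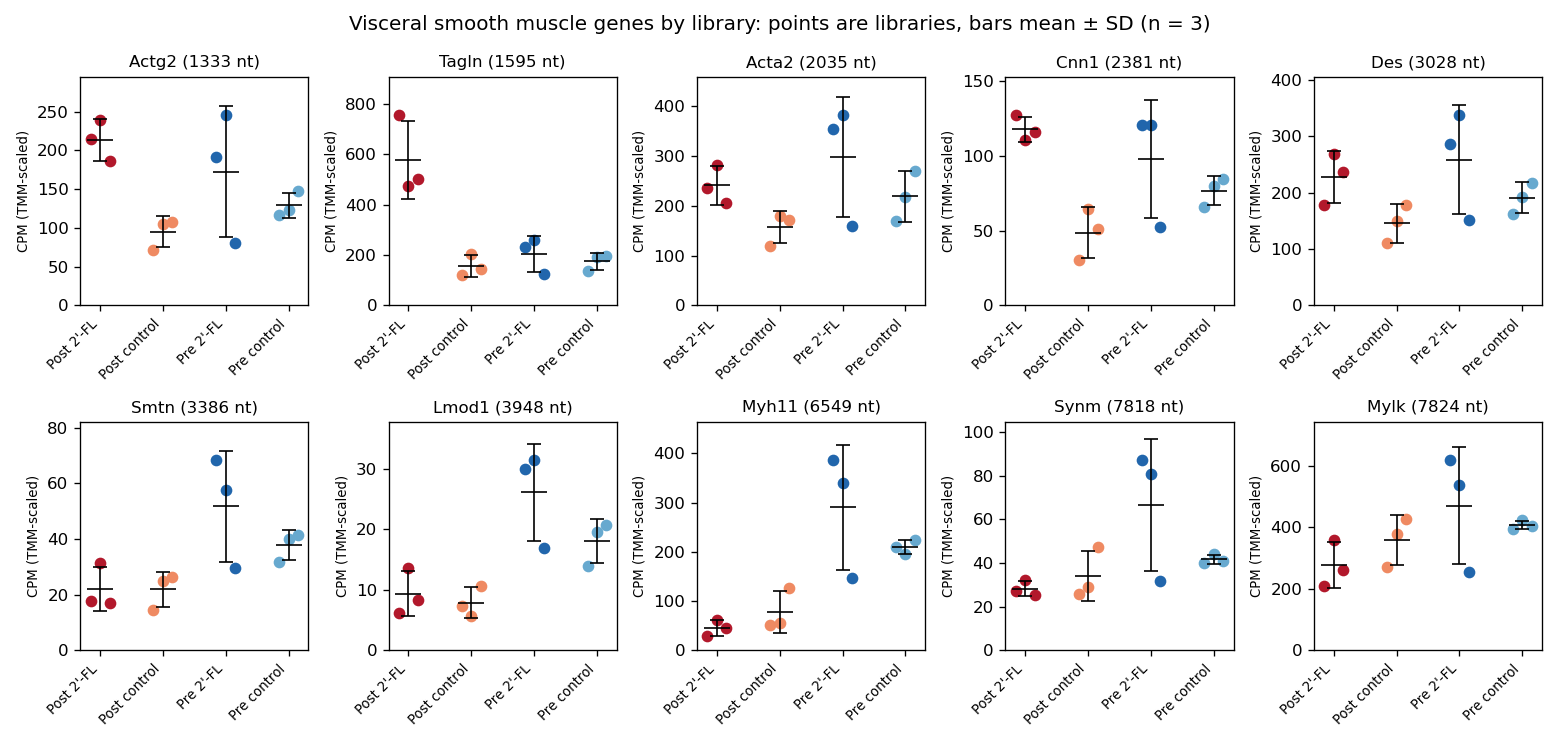
Level of each gene in CPM (vertical axes, each from 0) in the 12 libraries, in panels ordered by transcript length in nt, with points for libraries and bars for the mean ± SD of 3. Tagln stands highest in Post 2'-FL, where its 3 libraries lie between 475 and 755 CPM, and Myh11 stands higher in both Pre groups than in either Post group.

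The actins came first among the thin filament genes. Acta2 (smooth muscle alpha-actin, Entrez 11475, chr19:34240336-34255585) measured 236, 281 and 205 CPM in Post 2'-FL, 119.9, 179 and 171 in Post control, 353, 382 and 159.6 in Pre 2'-FL, and 169, 217 and 271 in Pre control. The 3 Post 2'-FL libraries lay above the 3 Post control libraries, while Pre 2'-FL held both the highest levels of the series and a low one. Actg2 (enteric gamma-actin, the main actin of visceral muscle, Entrez 11468, chr6:83512909-83536251) measured 215, 239 and 186 CPM in Post 2'-FL, 72.0, 105 and 107 in Post control, 192, 245 and 80.6 in Pre 2'-FL, and 117, 122 and 147 in Pre control. The coding sequences of both actins are 84.4% identical over 1131 aligned bases, yet no stretch of 50 bases of Actg2 occurs in transcripts of another gene, and 0.353% of such stretches of Acta2 do. Relative to each other the actins shifted as counted: log2 of Actg2 over Acta2, per kb, was 0.48, 0.38 and 0.47 in Post 2'-FL and between -0.37 and 0.09 in the other 9 libraries. With length and GC corrected, log2 CPM of Actg2 minus that of Acta2 was -0.31, -0.39 and -0.40 in Post 2'-FL and between -0.89 and -0.43 in the other 9. Actg2 has the shorter transcript of the pair.

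Myh11 (the smooth muscle myosin heavy chain and motor of the thick filament, Entrez 17880, chr16:14194527-14292188) measured 30.1, 61.4 and 45.8 CPM in Post 2'-FL, 51.3, 55.4 and 128 in Post control, 386, 339 and 147 in Pre 2'-FL, and 209, 196 and 224 in Pre control. Every Post library lay below every Pre library. Its spread over the 12 libraries was the widest of the 10 genes, with an SD of 1.23 on the log2 scale as counted and 0.75 corrected.

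Mylk (the light chain kinase that starts contraction, Entrez 107589, chr16:34745199-35002436) measured 210.2, 359 and 263 CPM in Post 2'-FL, 270.1, 379 and 429 in Post control, 618, 538 and 256 in Pre 2'-FL, and 396, 423 and 405 in Pre control. Among the actin-binding regulators, Cnn1 (calponin, which restrains the actin-activated myosin ATPase, Entrez 12797, chr9:22099221-22109221) measured 127, 110.3 and 116 CPM in Post 2'-FL, 30.5, 64.2 and 51.2 in Post control, 121, 121 and 52.4 in Pre 2'-FL, and 65.6, 80.0 and 84.2 in Pre control. The Post 2'-FL libraries of Cnn1 lay close together and above all Post control and Pre control libraries, whereas those of Mylk overlapped with Post control and Pre 2'-FL and lay below Pre control.

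Tagln (transgelin or SM22-alpha, an actin-bundling protein, Entrez 21345, chr9:45929628-45936058) measured 755, 475 and 503 CPM in Post 2'-FL, 119, 203 and 143 in Post control, 232, 258 and 124 in Pre 2'-FL, and 135, 194 and 196 in Pre control. The 3 Post 2'-FL libraries stood above the other 9, which overlapped with each other. Tagln overlaps the gene Pcsk7 by 2480 bases, and 48.3% of its 50-base stretches also occur in transcripts of Pcsk7 or of a neighbouring gene model, so reads may have been divided between them and its level is uncertain. Pcsk7, a proprotein convertase, did not move with it between the Post groups: it was lower in Post 2'-FL than in Post control (31.8 against 55.3 CPM, log2 change -0.79 ± 0.25 SE, adjusted p = 0.0211 by edgeR's quasi-likelihood test), and stood at -0.20 ± 0.20 corrected (edgeR adjusted p = 0.503).

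Lmod1 (leiomodin, which nucleates actin filaments, Entrez 93689, chr1:135324813-135368065) was the least abundant and measured 6.25, 13.6 and 8.37 CPM in Post 2'-FL, 7.40, 5.67 and 10.6 in Post control, 30.0, 31.4 and 16.9 in Pre 2'-FL, and 13.9, 19.5 and 20.7 in Pre control. Its counts ran down to 31 in a library. Smtn (smoothelin, an actin-associated protein of contractile muscle, Entrez 29856, chr11:3517522-3539292) measured 17.8, 31.3 and 16.9 CPM in Post 2'-FL, 14.5, 24.9 and 26.3 in Post control, 68.3, 57.5 and 29.6 in Pre 2'-FL, and 31.7, 40.1 and 41.6 in Pre control. As counted, every Post library lay below every Pre library for Lmod1, as for Myh11, which held for 8.94% of all tested genes. For Smtn this held in the control arm, and in the 2'-FL arm Post 2'-FL library 2 lay above Pre 2'-FL library 3. With length and GC corrected, Lmod1 in Post 2'-FL library 2 (0.39 from the gene's mean, log2) lay above Pre control library 1 (-0.14), while Myh11 stayed apart.

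Des (desmin, the muscle intermediate filament, Entrez 13346, chr1:75360292-75368579) measured 178, 269 and 237 CPM in Post 2'-FL, 109.9, 149.5 and 179 in Post control, 287, 338 and 152 in Pre 2'-FL, and 163, 192 and 218 in Pre control. Synm (synemin, a large intermediate filament protein that partners desmin, Entrez 233335, chr7:67730161-67759742) measured 27.3, 32.0 and 25.3 CPM in Post 2'-FL, 26.0, 29.2 and 47.4 in Post control, 87.1, 80.8 and 31.9 in Pre 2'-FL, and 40.0, 44.0 and 41.1 in Pre control. Des and Mylk varied least over the 12 libraries, each with an SD of 0.46 on the log2 scale as counted. Beside Tagln, the share of 50-base stretches found in other genes was 13.2% for Smtn, 5.81% for Des, 4.70% for Synm, 4.28% for Mylk and at most 0.4% for the other 5 genes.

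**Figure D2:**
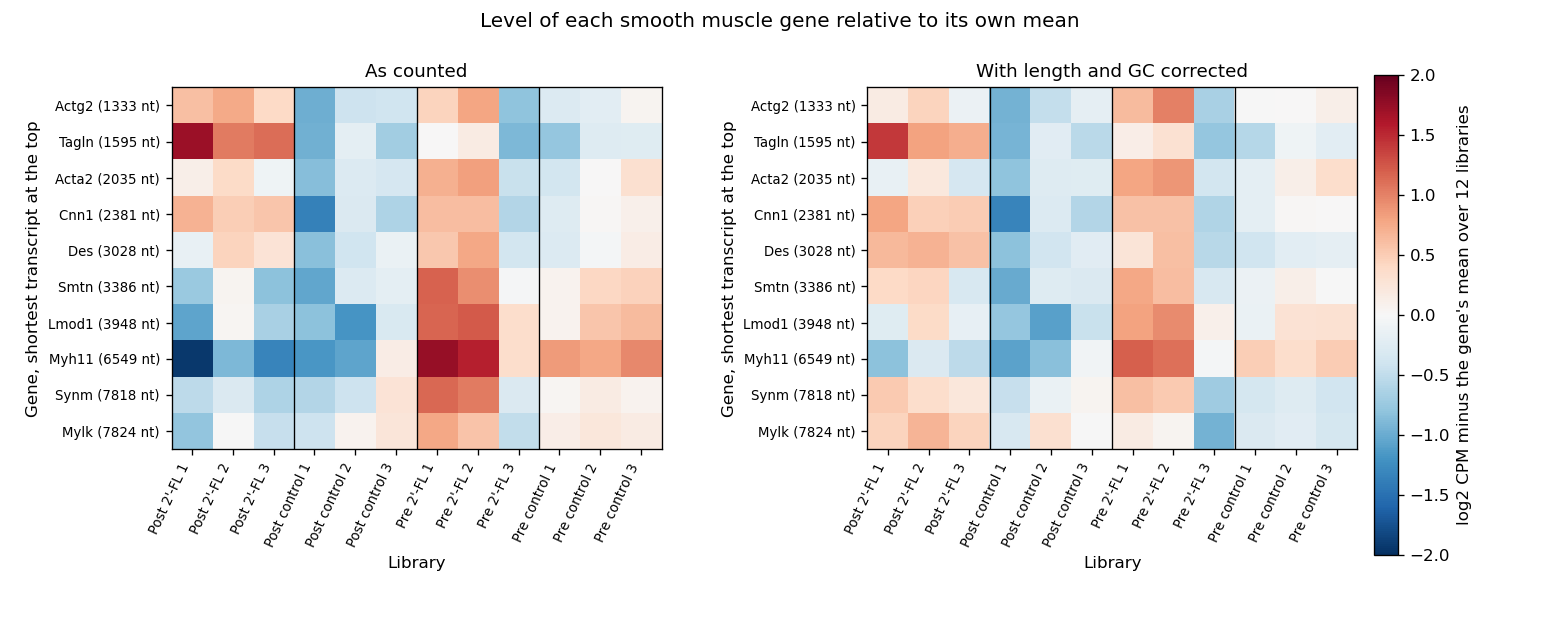
Level of each gene in each library (columns) as log2 CPM minus the gene's mean over 12 libraries, as counted on the left and with length and GC content corrected on the right, with genes ordered by transcript length. In Post 2'-FL the deviations run from Tagln above its mean to Myh11 below it, Pre 2'-FL libraries 1 and 2 are above the mean throughout as counted, and the contrast narrows after correction.

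The 10 genes did not keep a fixed ratio to each other. Within a library the SD of their deviations was 1.03, 0.55 and 0.74 (log2) in Post 2'-FL, 0.27, 0.38 and 0.34 in Post control, 0.49, 0.38 and 0.43 in Pre 2'-FL and 0.43, 0.33 and 0.34 in Pre control. Corrected, it was 0.62, 0.31 and 0.45 in Post 2'-FL, against 0.21 to 0.39 in the other 9 libraries. The widest gap was between Tagln and Myh11: log2 of Tagln over Myh11, per kb, was 6.69, 4.99 and 5.50 in Post 2'-FL, 3.25, 3.91 and 2.21 in Post control, 1.30, 1.64 and 1.79 in Pre 2'-FL, and 1.41, 2.02 and 1.84 in Pre control. With length and GC corrected, log2 CPM of Tagln minus that of Myh11 was 3.23, 2.10 and 2.25 in Post 2'-FL, 1.15, 1.60 and 0.53 in Post control, -0.07, 0.22 and 0.26 in Pre 2'-FL, and -0.06, 0.56 and 0.29 in Pre control. The Post 2'-FL values lay above those of all other groups on both scales, and the 2 Pre groups overlapped.

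After resection without 2'-FL, the motor protein gene Myh11 and the leiomodin gene Lmod1 fell and no member rose. Myh11 averaged 78.1 ± 42.9 CPM in Post control and 209.7 ± 13.7 CPM in Pre control (SD, n = 3 each), a log2 change of -1.42 ± 0.38 (SE, edgeR adjusted p = 0.0327), or 2.67-fold lower. Lmod1 averaged 7.90 ± 2.52 CPM in Post control and 18.0 ± 3.65 CPM in Pre control (SD, n = 3 each), a log2 change of -1.17 ± 0.32 (edgeR adjusted p = 0.0343). These are 2 of 10 members called lower, beside 6.33% of all tested genes, and 0 called higher, beside 4.42%. DESeq2 also called 2 lower and 0 higher, beside 7.69% and 7.12% of all genes. At an unadjusted p under 0.05, 4 were lower and 0 higher. The share of all genes at an unadjusted p was not taken, here or below, so such counts cannot be set against it. The change was negative for all 10 as counted, with a median of -0.46, against -0.05 over all tested genes. With the correction 8 of 10 were negative, Synm (0.17) and Mylk (0.31) being the exceptions.

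Libraries of the control arm did not overlap for 5 members, Actg2, Myh11, Cnn1, Lmod1 and Smtn, each lower in Post control, beside 17.6% of all tested genes. With length and GC corrected, Myh11 (-1.04 ± 0.30, edgeR adjusted p = 0.0394) and Lmod1 (-0.91 ± 0.26, edgeR adjusted p = 0.0377) were again the 2 members called lower, beside 5% of all genes, and 0 were called higher, beside 7.61%. Both calls depended on single libraries: as counted, neither was called without Pre control 2 or 3 or without Post control 1 or 2, where Myh11 lay between -1.44 and -1.17 and Lmod1 between -1.10 and -0.97. Corrected, both calls were lost without the same 4 libraries, and that of Myh11 also without Pre control 1 (-1.01, adjusted p = 0.0606 by edgeR).

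In the 2'-FL arm Tagln rose and 5 members fell after resection. Tagln averaged 578 ± 154 CPM in Post 2'-FL and 205 ± 71.3 CPM in Pre 2'-FL (SD, n = 3 each), a log2 change of 1.50 ± 0.30 (edgeR adjusted p = 0.000858), or 2.82-fold higher. Myh11 averaged 45.8 ± 15.7 CPM in Post 2'-FL and 291 ± 127 CPM in Pre 2'-FL (SD, n = 3 each), a log2 change of -2.67 ± 0.40 (edgeR adjusted p = 0.000132), or 6.34-fold lower. Lmod1 (-1.47 ± 0.32), Synm (-1.24 ± 0.32), Smtn (-1.23 ± 0.32) and Mylk (-0.76 ± 0.30) were called lower too, with adjusted p between 0.00172 and 0.0413 by edgeR. The 1 called higher and the 5 called lower stand beside 25.3% and 30% of all tested genes, so many genes moved in this comparison. The median of the 10 was -0.54, against -0.13 over all tested genes.

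The corrected values for this arm were different. Tagln stayed higher (1.05 ± 0.28, edgeR adjusted p = 0.0108) and Myh11 lower (-1.38 ± 0.31, edgeR adjusted p = 0.00385). Mylk turned round to 0.69 ± 0.25 and was called higher (edgeR adjusted p = 0.0458), and Synm turned to 0.11 ± 0.27 (edgeR adjusted p = 0.767). Lmod1 (-0.66 ± 0.26, adjusted p = 0.0654) and Smtn (-0.24 ± 0.28, adjusted p = 0.536) were no longer called by edgeR. That left 2 members higher, beside 21.1% of all genes, and 1 lower, beside 14.8%. The corrected call of Tagln was lost without Post 2'-FL library 1 (0.82, edgeR adjusted p = 0.0520), and that of Mylk without any Post 2'-FL library or without Pre 2'-FL library 3 (0.42 to 0.74). As counted, Mylk was lost without Pre 2'-FL 1 or 2 or Post 2'-FL 1 or 3 (-0.72 to -0.45).

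Genes of like transcript length set a scale for these values as counted. In Post 2'-FL against Pre 2'-FL, the 1269 tested genes from 1251 to 1731 nt, among them Actg2 and Tagln, had a median log2 change of 0.64 with quartiles at 0.07 and 1.12. Tagln at 1.50 lay above that middle range and Actg2 at 0.31 within it. The 1266 genes with the longest transcripts, from 6527 nt, had a median of -1.20 with quartiles at -1.81 and -0.50. Myh11 at -2.67 lay below that range, and Synm at -1.24 and Mylk at -0.76 lay within it. Lmod1 at -1.47 lay below the lower quartile of the genes from 3559 to 4203 nt (-1.18), and Smtn at -1.23 below that of the genes from 3037 to 3558 nt (-0.97). Acta2 at -0.31 lay just below the lower quartile of the genes from 1732 to 2148 nt (-0.29), and Cnn1 (0.26) and Des (-0.18) lay within the middle range of theirs.

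**Figure D3:**
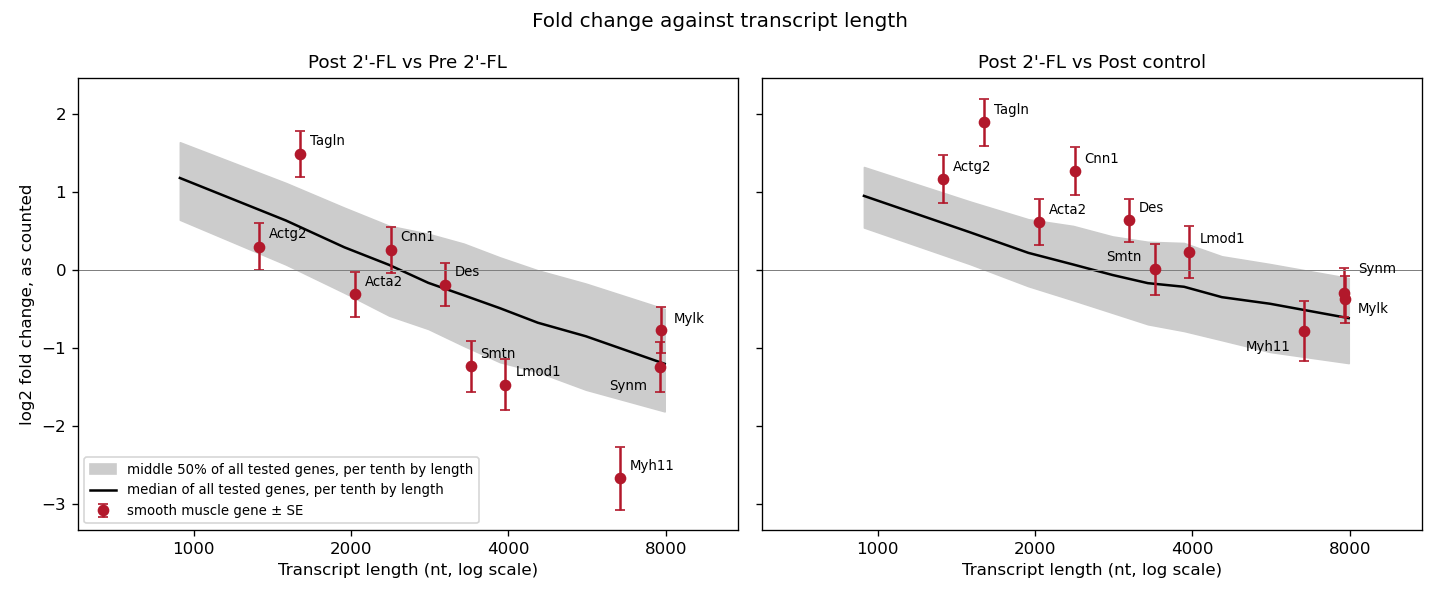
Log2 fold change as counted (vertical axis) against transcript length in nt (log axis) for Post 2'-FL against Pre 2'-FL and against Post control, with the median and middle 50% of all tested genes in 10 bins of length and the smooth muscle genes ± SE. In the left panel Tagln (1.50) lies above the middle 50% of genes of like length, and Myh11 (-2.67), Lmod1 (-1.47), Smtn (-1.23) and, narrowly, Acta2 (-0.31) lie below it, and in the right panel Tagln (1.90), Actg2 (1.17), Cnn1 (1.28) and Des (0.64) lie above them.

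With both arms together, Myh11 was lower after resection on each scale, at -2.04 ± 0.28 as counted (edgeR adjusted p = 7.03e-05) and -1.21 ± 0.22 corrected (edgeR adjusted p = 0.000712). The same held for Lmod1, at -1.32 ± 0.23 as counted (edgeR adjusted p = 0.000327) and -0.78 ± 0.19 corrected (edgeR adjusted p = 0.00426). These 2 genes were called in every run that left out a library from the corrected fit over both arms. Synm (-0.76), Smtn (-1.01) and Tagln (0.66) were called as counted and not corrected, when they stood at 0.14, -0.36 and 0.39. Corrected, Acta2 (-0.56 ± 0.20, adjusted p = 0.0377) was called lower and Mylk (0.50 ± 0.18, adjusted p = 0.0350) higher by edgeR, and leaving out a library ended the call of Acta2 in 8 of 12 runs and that of Mylk in 7 of 12. For Acta2 these were Post 2'-FL 1 and 3, Post control 1 and 2, Pre 2'-FL 1 and 2 and Pre control 2 and 3 (-0.59 to -0.45), and for Mylk Post 2'-FL 2, Post control 2 and 3, Pre 2'-FL 3 and each Pre control library (0.37 to 0.52). As counted 1 member was higher, beside 25.3% of all genes, and 4 lower, beside 31.1%. Corrected, 1 was higher, beside 24.9%, and 3 lower, beside 18.5%.

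After resection the supplement went with higher Tagln, Cnn1 and Actg2. Tagln averaged 578 ± 154 CPM in Post 2'-FL and 155 ± 43.1 CPM in Post control (SD, n = 3 each), a log2 change of 1.90 ± 0.30 (edgeR adjusted p = 0.000828), or 3.73-fold higher. Cnn1 averaged 118 ± 8.60 CPM in Post 2'-FL and 48.6 ± 17.0 CPM in Post control (SD, n = 3 each), a log2 change of 1.28 ± 0.30 (edgeR adjusted p = 0.00513). Actg2 averaged 213 ± 26.8 CPM in Post 2'-FL and 94.9 ± 19.9 CPM in Post control (SD, n = 3 each), a log2 change of 1.17 ± 0.31 (edgeR adjusted p = 0.00934). These 3 of 10 members were called higher, beside 18.8% of all tested genes, and 0 lower, beside 19.3%. The same 3 were called in each of the 6 runs that left out a library. DESeq2 also called 3 higher and 0 lower, beside 20.1% and 19.1% of all genes. At an unadjusted p under 0.05, 4 were higher and 0 lower, for which the share of all genes was not taken.

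As counted, Post 2'-FL and Post control libraries did not overlap for these 3 genes and for Acta2, all higher in Post 2'-FL, beside 25.2% of all tested genes. Acta2 itself (0.62 ± 0.29, edgeR adjusted p = 0.112) and Des (0.64 ± 0.28, edgeR adjusted p = 0.0824) were not called as counted. Corrected, Acta2 in Post 2'-FL library 3 (-0.34 from the gene's mean, log2) lay below Post control library 3 (-0.24). Myh11 (-0.77 ± 0.39, edgeR adjusted p = 0.126), Mylk (-0.37) and Synm (-0.28) were the 3 members with a negative value as counted. They are also the 3 longest transcripts of the set.

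Corrected for length and GC, all 10 values were positive, with a median of 0.68, against 0.00 over all tested genes. Tagln (1.56 ± 0.29, adjusted p = 0.00430), Cnn1 (1.26 ± 0.29, adjusted p = 0.0112) and Des (1.10 ± 0.24, adjusted p = 0.00935) were called higher by edgeR, beside 10.3% of all tested genes, and 0 were called lower, beside 11.4%. Actg2 (0.68 ± 0.32, edgeR adjusted p = 0.134) was not called, and Myh11 stood at 0.06 ± 0.31. Leaving out Post 2'-FL library 1 ended the corrected call of Cnn1 (1.16, edgeR adjusted p = 0.0522), while Tagln and Des were called in all 6 such runs. The comparisons of Post 2'-FL with Pre 2'-FL and with Post control share the 3 Post 2'-FL libraries.

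**Figure D4:**
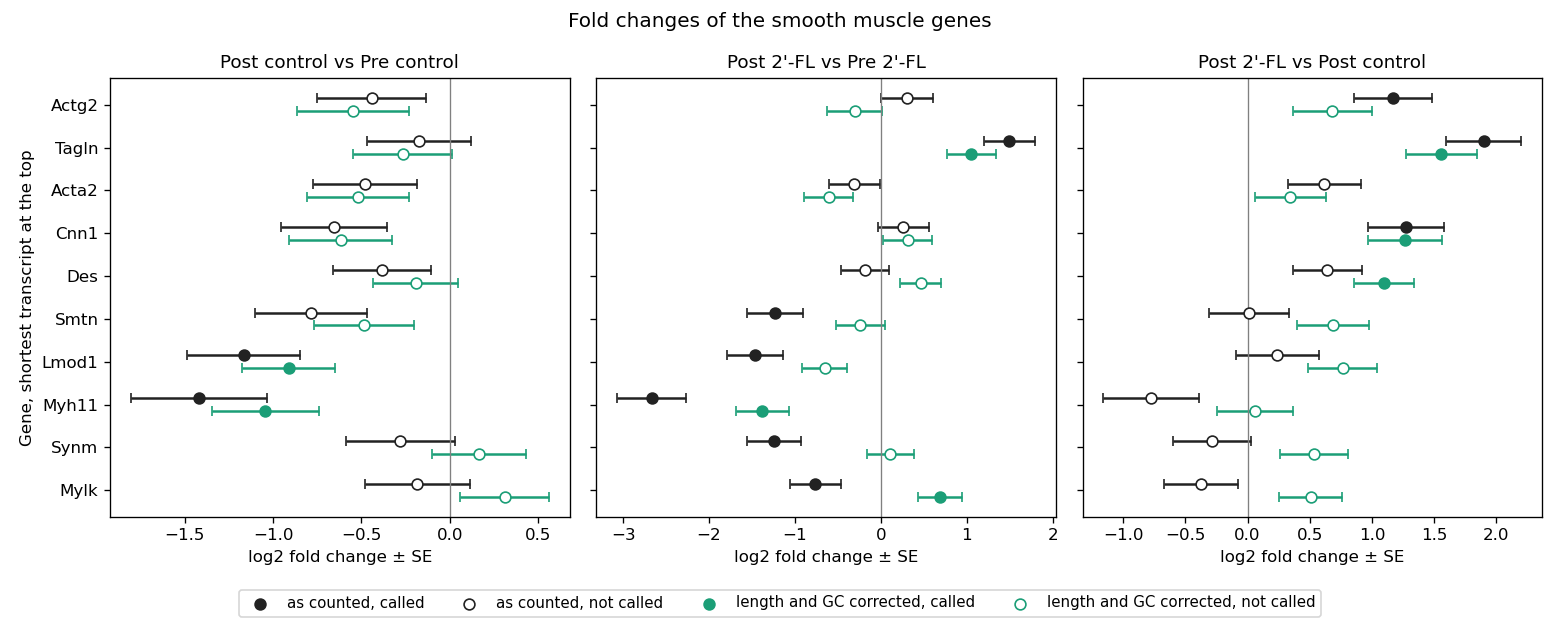
Log2 fold change ± SE of each gene (horizontal axis) in 3 comparisons, as counted in black and with length and GC corrected in green, with filled points for an adjusted p under 0.05. Tagln is called higher in both comparisons of Post 2'-FL on each scale, Myh11 is called lower in both comparisons of Post with Pre on each scale, and Mylk changes sign in Post 2'-FL against Pre 2'-FL.

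Between the arms before resection, no member was called by edgeR (0 of 10, beside 0% of tested genes higher and 0.0152% lower) or by DESeq2 (beside 0.0684% higher and 0.114% lower), and 1, Synm, was higher at an unadjusted p under 0.05. All 10 values were positive, between 0.21 and 0.68 with a median of 0.44, against 0.02 over all tested genes, and the groups overlapped for each gene. Pre 2'-FL libraries 1 and 2 exceeded library 3 for all 10 genes. Myh11, for example, stood at 386, 339 and 147 CPM in Pre 2'-FL, against 209, 196 and 224 CPM in Pre control. Without Pre 2'-FL library 3 there was again no call, with an edgeR adjusted p of 0.606 for Synm.

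The difference between the arms in their change after resection was called for Tagln alone among the 10 as counted. It changed by 1.50 in the 2'-FL arm and by -0.17 in the control arm, a difference of 1.67 ± 0.42 (edgeR adjusted p = 0.0209). This is 1 member called higher, beside 7.47% of tested genes, and 0 lower, beside 8.03%. The call was kept in 11 of 12 runs that left out a library and was lost without Post control 3 (1.68, edgeR adjusted p = 0.0554). Corrected, the difference for Tagln was 1.32 ± 0.40 (edgeR adjusted p = 0.101) and 0 of 10 members were called, beside 0% of all genes. At an unadjusted p under 0.05, 2 members were higher as counted, Tagln and Cnn1, and 2 lower, Myh11 and Synm, and the corrected fit had the same 2 higher and 0 lower. The share of all genes at that threshold was not taken. The difference for Myh11 was -1.25 ± 0.54 as counted (edgeR adjusted p = 0.124) and -0.34 ± 0.43 corrected (edgeR adjusted p = 0.698).

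The wider contractile apparatus was read from 47 further listed symbols, of which 44 were in the files (Mrtfa, Mrtfb and Irag1 appear there under the older symbols Mkl1, Mkl2 and Mrvi1, also listed) and 42 were tested. In the control arm 6 of 42 were lower after resection and 0 higher, beside 6.33% and 4.42% of all tested genes, among them Kcnma1 (the large-conductance calcium-activated potassium channel, -1.89 ± 0.36), Actn1 (alpha-actinin, -1.21 ± 0.25), Flna (filamin A, -1.08 ± 0.29) and Vcl (vinculin of adhesion plaques, -0.98 ± 0.23). Their adjusted p lay between 0.00824 and 0.0314 by edgeR. The median of the 42 was -0.56, against -0.05 over all tested genes. Corrected, 5 were lower and 0 higher, beside 5% and 7.61%: Kcnma1 (-1.44), Actn1 (-0.97) and Vcl (-0.69) kept their calls, and Flna stood at -0.59 ± 0.23 (edgeR adjusted p = 0.0972).

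In the 2'-FL arm 20 of 42 were lower after resection and 3 higher, beside 30% and 25.3% of all tested genes, with a median of -0.77, against -0.13 over all tested genes. Actn1 (-2.0 ± 0.26), Mkl2 (a coactivator of serum response factor, -1.62 ± 0.22) and Atp2a2 (the calcium pump of the sarcoplasmic reticulum, -1.72 ± 0.25) fell, and Myl6 (the essential myosin light chain, 1.61 ± 0.23) rose, each with an edgeR adjusted p of at most 0.000112. Corrected, 10 were lower and 3 higher, beside 14.8% and 21.1%, Actn1 standing at -1.26, Atp2a2 at -0.91 and Myl6 at 0.55, all still called, and Mkl2 at -0.34 (edgeR adjusted p = 0.136). Over both arms 24 were lower and 3 higher as counted, beside 31.1% and 25.3%, and 15 lower and 4 higher corrected, beside 18.5% and 24.9%. Actn1, Vcl and Atp2a2 were called lower and Myl6 higher over both arms on each scale.

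In Post 2'-FL against Post control, 8 of the 42 were higher and 10 lower, shares near the 18.8% and 19.3% of all tested genes. Csrp1 (a muscle LIM protein, 1.65 ± 0.29) and Pdlim3 (an actinin-binding PDZ and LIM protein, 1.46 ± 0.30) rose, and Ppp1r12a (the targeting subunit of myosin phosphatase, -1.97 ± 0.30) and Atp2a2 (-1.23 ± 0.25) fell, each with an edgeR adjusted p of at most 0.00228. Corrected, 7 were higher and 3 lower, beside 10.3% and 11.4%, and these 4 kept their calls at 1.57, 1.10, -1.88 and -0.73. Before resection edgeR called 0 of the 42 between the arms, beside 0% of all tested genes higher and 0.0152% lower. DESeq2 also called 0, beside 0.0684% higher and 0.114% lower, and 1 was higher at an unadjusted p under 0.05 by edgeR. The 4 smallest p there belonged to Nexn, Synpo2, Chrm2 and Cald1, each with an edgeR adjusted p of 1.00.

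Of the transcription factors of this programme, Myocd (myocardin) was low, with means of 0.648 CPM in Post 2'-FL, 1.40 in Post control, 2.68 in Pre 2'-FL and 1.71 in Pre control. It was called lower in Post 2'-FL against Pre 2'-FL as counted (-1.96 ± 0.65, edgeR adjusted p = 0.0189) and not corrected (-1.10 ± 0.62, edgeR adjusted p = 0.178). Srf (serum response factor) averaged 24.7 CPM in Post 2'-FL, 45.9 in Post control, 44.1 in Pre 2'-FL and 51.0 in Pre control. It was called lower in Post 2'-FL than in Pre 2'-FL as counted (-0.84 ± 0.24, edgeR adjusted p = 0.00860) and stood at 0.00 ± 0.18 corrected. It was also called lower in Post 2'-FL than in Post control as counted (-0.89 ± 0.24, edgeR adjusted p = 0.00976) and not corrected (-0.39 ± 0.18, edgeR adjusted p = 0.131). In the control arm neither was called, at -0.26 ± 0.57 for Myocd and -0.16 ± 0.23 for Srf (edgeR adjusted p = 0.786 and 0.680), and corrected at 0.04 ± 0.54 for Myocd and 0.14 ± 0.17 for Srf.

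The genes whose pattern over the 12 libraries was closest to the mean deviation of the 10, among 10125 other genes with a mean of at least 5 CPM, were Cald1, Cpe, Slc2a4, Pdlim7 and Eml1, with root mean square differences of 0.20, 0.20, 0.20, 0.22 and 0.22 on the log2 scale. The median over all candidates was 0.68. Corrected, the 5 closest were Tpm2, Flna, Cryab, Jph2 and Cald1, at 0.19 to 0.23, so that Cald1 (caldesmon) alone was among the 5 on both scales. Of the members, Acta2 (0.17) and Des (0.19) lay closest to the mean of the 10 as counted, and Myh11 (0.89) and Tagln (0.85) farthest.

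Markers of other cell types also moved with the groups. In bulk tissue, fewer cells of a type and less RNA per cell cannot be told apart. The summed level of the 10 members was 1605 to 1873 CPM in Post 2'-FL, 821 to 1292 in Post control, 1050 to 2390 in Pre 2'-FL and 1340 to 1648 in Pre control. The sum of 10 epithelial markers was 48783 to 54177 CPM in Post 2'-FL, 33558 to 43349 in Post control, 15401 to 23279 in Pre 2'-FL and 18883 to 30269 in Pre control, without overlap between Post and Pre. The largest part of that sum in every group was Fabp2, the intestinal fatty acid binding protein, which averaged 37010 CPM in Post 2'-FL, 19212 in Post control, 5117 in Pre 2'-FL and 8708 in Pre control. Gene by gene, edgeR called 0 of 10 epithelial markers in the control arm, beside 4.42% of all tested genes higher and 6.33% lower. At an unadjusted p under 0.05, 1 was higher and 0 lower there, and DESeq2 called 1 higher, beside 7.12%. In the 2'-FL arm edgeR called 2 higher and 2 lower, beside 25.3% and 30%. Between the Post groups 7 of 10 were lower in value in Post 2'-FL, against the direction of the sum, and 3 were called lower, beside 19.3% of all tested genes. The part of these markers in the lower Myh11 and Lmod1 of the Post groups was not tested.

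Cells that lie within or beside the muscle layers had lower summed markers on average in the Post groups. Post and Pre ranges did not overlap for interstitial cells of Cajal or for enteric neurons and glia, and did for endothelium and for pericytes with vascular muscle. The 4 markers of interstitial cells of Cajal, the pacemakers of gut muscle, summed to 10.0 to 11.9 CPM in Post 2'-FL, 8.77 to 12.6 in Post control, 24.7 to 34.7 in Pre 2'-FL and 21.7 to 31.6 in Pre control. As counted, 2 of 4 were called lower in the control arm and 4 of 4 in the 2'-FL arm, beside 6.33% and 30% of all tested genes. Corrected, these were 2 of 4 and 1 of 4, beside 5% and 14.8%. The 10 enteric neuron and glia markers summed to 10.0 to 13.8 CPM in Post 2'-FL, 6.58 to 9.55 in Post control, 27.8 to 39.7 in Pre 2'-FL and 16.9 to 37.7 in Pre control. The 7 endothelial markers summed to 18.2 to 29.4 CPM in Post 2'-FL, 22.7 to 37.3 in Post control, 69.4 to 156 in Pre 2'-FL and 23.4 to 122 in Pre control. The 6 pericyte and vascular muscle markers summed to 46.9 to 91.1 CPM in Post 2'-FL, 38.0 to 48.8 in Post control, 85.9 to 143 in Pre 2'-FL and 54.9 to 116 in Pre control. Calls for the neuron and glia, endothelial and pericyte lists stand beside the same shares of all tested genes. Of 8 tested neuron and glia markers, 4 were called lower in the control arm and 5 in the 2'-FL arm, and corrected 4 and 6. Of 7 endothelial markers these were 1 and 7, and corrected 0 and 3. Of 6 pericyte and vascular muscle markers they were 2 and 4, and corrected 0 and 2. In either arm 0 were called higher. The part of these cells in the changes of the smooth muscle genes was not tested.

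Fibroblast markers moved with Tagln, Cnn1 and Actg2 between the Post groups. The 7 markers summed to 349 to 594 CPM in Post 2'-FL, 129 to 230 in Post control, 297 to 514 in Pre 2'-FL and 118 to 581 in Pre control, and 4 of 7 were called higher and 0 lower in Post 2'-FL against Post control on each scale, beside 18.8% of all tested genes higher as counted and 10.3% corrected. The part of fibroblasts in the higher Tagln, Cnn1 and Actg2 was not tested. The 5 adipocyte markers summed to 24.02 to 96.4 CPM in Post 2'-FL, 13.7 to 49.3 in Post control, 60.0 to 365 in Pre 2'-FL and 17.3 to 49.0 in Pre control, and their part in the levels of Pre 2'-FL was not tested. The 5 mesothelial markers summed to 501 to 797 CPM in Post 2'-FL, 734 to 1025 in Post control, 781 to 971 in Pre 2'-FL and 1033 to 1242 in Pre control. That sum was carried by Krt19, a keratin also made by epithelium, which averaged 662 CPM in Post 2'-FL, 856 in Post control, 854 in Pre 2'-FL and 1161 in Pre control. The other mesothelial markers moved the opposite way: Msln (mesothelin) averaged 6.31 CPM in Post 2'-FL, 3.25 in Post control, 0.121 in Pre 2'-FL and 0.170 in Pre control. Upk3b averaged 5.71 CPM in Post 2'-FL, 4.69 in Post control, 0.0521 in Pre 2'-FL and 0.0792 in Pre control. These 2 and Lrrn4 were called higher after resection in each arm on each scale, 3 of 4 tested markers. Of all tested genes, 4.42% were called higher in the control arm and 25.3% in the 2'-FL arm as counted, and 7.61% and 21.1% corrected. Post and Pre libraries did not overlap for these 3, beside 8.02% of all tested genes without overlap and higher in Post. Wt1, below the count filter, was at 0 in both Pre groups and detected in both Post groups. The part of mesothelium in the changes of the smooth muscle genes was not tested. The 8 skeletal muscle markers summed to 10.9 to 11.9 CPM in Post 2'-FL, 7.70 to 11.3 in Post control, 6.44 to 43.6 in Pre 2'-FL and 11.8 to 12.7 in Pre control. Of these, Myh1, Myh2 and Myh4 were at 0 in all 4 groups. The 4 heart muscle markers summed to 14.3 to 20.1 CPM in Post 2'-FL, 7.12 to 9.69 in Post control, 3.39 to 8.91 in Pre 2'-FL and 4.98 to 9.63 in Pre control. Of these, Myh6 was at 0 in 3 of 4 groups. The part of striated muscle was not tested. Acinar pancreas markers summed to at most 0.189 CPM.

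**Figure D5:**
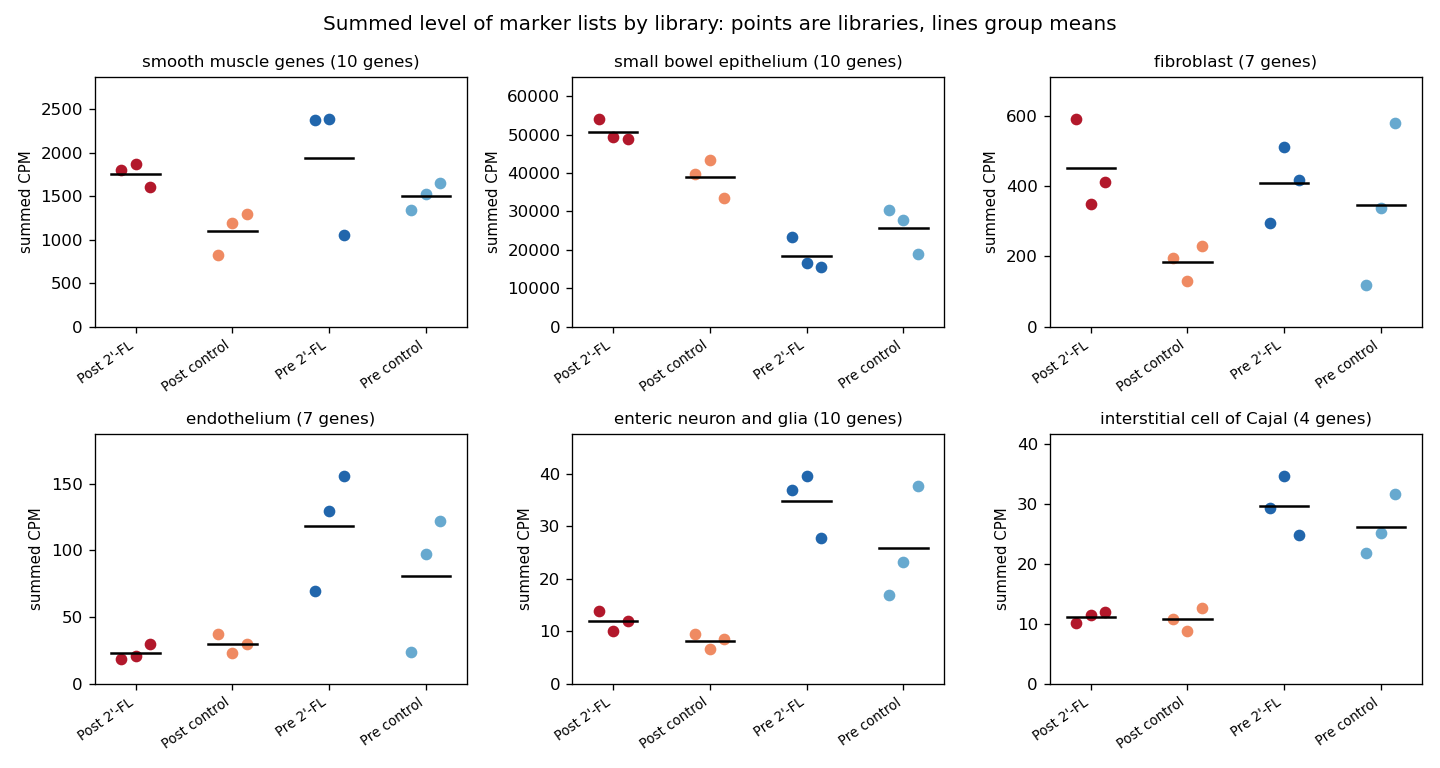
Summed level in CPM (vertical axes, each from 0) of the smooth muscle genes and of 5 lists of cell type markers in the 12 libraries, with points for libraries and lines for group means. The epithelial sum, of which Fabp2 is the largest part, stands higher after resection, summed markers of interstitial cells of Cajal and of enteric neurons and glia stand lower there, and the fibroblast sum is lowest on average in Post control.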

How the data were processed

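RNA of small bowel was counted in 12 libraries, 3 in each of 4 groups taken from the labels. The deposited values are estimated counts per gene (expected counts), not normalised by the authors per the file headers, with fractional values in 15.2% to 20.5% of a library's entries. The submitters' processing notes name the mm10 build and DESeq, and the aligner, counting program, annotation and strand are not given in the sources used here. The 36186 entries were summed by gene to 35791 genes and rounded. Totals ran from 5663275 to 9385266 counts, and 1 count was worth 0.100 to 0.189 CPM after scaling.

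Genes were kept with filterByExpr and libraries scaled with TMM in edgeR 4.0.16 (R 4.3.3, limma 3.58.1), and 1 quasi-likelihood model with a mean per group was fitted to all 12 libraries (8 residual degrees of freedom, biological coefficient of variation 0.238). P-values are two-sided with Benjamini-Hochberg adjustment over 13154 genes, and standard errors are the log2 change over the root of the F statistic. A gene is said not to overlap where all libraries of a group lie on 1 side of those of the other, in CPM as counted.

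For the correction, each gene's log2 CPM (prior count 2) was centred, natural splines (4 degrees of freedom) on transcript length and GC content were fitted to it per library, and the fits entered the model as offsets. Length and GC are those of the longest GENCODE vM21 transcript with a curated RefSeq mRNA. They were had for 12654 of the 13154 genes, and the others were left uncorrected.

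Alternatives were DESeq2 1.42.0, RLE scaling, no filter on low counts, a replicate block, the correction with and without the block, and leaving out each library. Leaving out libraries in the corrected fit was added after seeing the data. The members and gene lists were chosen with earlier results of these data known. From the list of other contractile genes the text names the 4 smallest p in a comparison, always with Myocd and Srf, and the genes most like the members are the 5 with the smallest root mean square difference of centred log2 CPM. Pcsk7 was named after its overlap with Tagln was seen. Gene positions, overlaps and promoters are from RefSeq on GRCm38.p6. Stretches of bases shared with other genes were sought among GENCODE vM21 transcripts.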

Additional observations from a re-analysis of the deposited data

Results flagged for a closer look

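The change after resection differed between the 2'-FL arm and the control arm for 1 member and 5 other contractile genes, by the test of the difference itself in edgeR's quasi-likelihood fit as counted. That is 1 of 10 and 5 of 42, beside 15.5% of all tested genes called in either direction for this difference. By direction, 1 of 10 and 2 of 42 were called higher, beside 7.47% of all tested genes, and 0 of 10 and 3 of 42 lower, beside 8.03%. For Tagln the difference (change of the 2'-FL arm less that of the control arm, on the log2 scale) was 1.67, with an adjusted p of 0.0209. Csrp1, at 1.33 (edgeR adjusted p = 0.0402), and Myl6, at 1.15 (edgeR adjusted p = 0.0279), changed more upward in the 2'-FL arm. Ppp1r12a, at -2.0 (edgeR adjusted p = 0.0162), Mkl2, at -1.25 (edgeR adjusted p = 0.0192), and Atp2a2, at -1.14 (edgeR adjusted p = 0.0419), changed more downward there. With length and GC corrected, the differences were 1.32 for Tagln, 1.23 for Csrp1, 0.19 for Myl6, -1.85 for Ppp1r12a, -0.41 for Mkl2 and -0.59 for Atp2a2. None of the 6 was then called by edgeR, beside 0% of all tested genes. For this comparison, Myl6 has a transcript of 692 nt and Mkl2 of 8295 nt.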

How the results depend on the processing

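Each of the 10 genes was read in 6 comparisons, which gives 60 calls. DESeq2 and the fit without a filter on low counts left all 60 on the same side of the threshold, with the same direction where called. RLE scaling ended 1 call, Mylk in Post 2'-FL against Pre 2'-FL (-0.69, edgeR adjusted p = 0.0609). Correlations of same-numbered Post and Pre libraries were -0.10, 0.16 and 0.06 in the control arm and -0.12, -0.06 and 0.22 in the 2'-FL arm. Those of differently numbered libraries ran from -0.18 to 0.15 in the control arm and from -0.20 to 0.20 in the 2'-FL arm. With 3 libraries per group these values cannot decide whether equal numbers mark pairs. The replicate block ended the same call (-0.77, edgeR adjusted p = 0.0503) and changed no other.

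The length and GC correction moved most. In the difference between arms it gave 0 members higher, with or without the replicate block, beside 0% of all tested genes. In Post 2'-FL against Pre 2'-FL it gave 2 members higher and 1 lower, with or without the block. Beside these stand 21.1% and 14.8% of all tested genes without the block, and 20.5% and 14.5% with it. Values of Synm and Mylk turned to 0.11 and 0.69 there (0.15 and 0.72 with the block), and over both arms to 0.14 and 0.50 (0.17 and 0.51 with the block). Correction and block together left 1 member lower in Post control against Pre control, beside 5.25% of all tested genes. Myh11 was no longer called there, at an edgeR adjusted p of 0.0546. The cause was not tested.

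Leaving out a library as counted gave 0 to 2 members lower and 0 higher in Post control against Pre control, 1 higher and 4 to 5 lower in Post 2'-FL against Pre 2'-FL, 1 higher and 4 to 6 lower over both arms, 3 higher and 0 lower in Post 2'-FL against Post control, and 0 to 1 in each direction for the difference between arms, where Synm was called lower without Pre 2'-FL 3 (-1.29). Over both arms, Acta2 (-0.54) and Mylk (-0.62) became called lower without Pre 2'-FL 3, and Mylk (-0.59) without Post 2'-FL 2. Corrected, it gave 0 higher and 0 to 2 lower in the control arm, 0 to 3 higher and 1 to 3 lower in the 2'-FL arm, 0 to 1 higher and 2 to 5 lower over both arms, 2 to 3 higher and 0 lower between the Post groups, and 0 for the difference between arms. In the corrected 2'-FL arm, Acta2 (-0.90) and Lmod1 (-0.86) became called lower without Pre 2'-FL 3, Lmod1 (-0.90) without Post 2'-FL 2, and Des (0.74) higher without Pre 2'-FL 2. Over both arms corrected, Actg2 (-0.59) and Smtn (-0.48) became called lower without Pre 2'-FL 3. Between the Pre groups both fits gave 0 throughout. The share of all genes called is not given for the runs that left out a library, so these counts cannot be set against it. Among the 10 genes depth was lowest for Lmod1, with 31 counts in a library.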
